A study of Homo sapiens with 12 samples.

Results

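Splicing regulators are RNA-binding proteins that decide which splice sites of a pre-mRNA are used, and 45 of them, named in a list chosen by gene symbol, are described here out of 37471 genes in the deposited expression table. The list holds hnRNP proteins, SR proteins, RBM proteins and related factors, and leaves out HNRNPF, HNRNPH2 and HNRNPH3. Regulators encoded on chromosomes 3 to 9 were not analysed here. RNA was measured by polyA RNA-seq in CAL62 cells, an established line from an anaplastic thyroid carcinoma, in 4 groups of 3 libraries. The first group was the miR-139 line, in which a doxycycline-inducible promoter drives mature hsa-miR-139-5p, after 96 h with 1 µg/ml doxycycline. The second was the same line untreated, labelled 0 h. The third was the scrambled line, an isogenic line that expresses a non-targeting control from the same kind of promoter, after 96 h with 1 µg/ml doxycycline, and the fourth was the scrambled line untreated, labelled 0 h. The protocol and design text speak of cells kept with or without doxycycline for 96 h. If the untreated libraries were taken at 0 h, as labelled, doxycycline and 96 h of culture cannot be told apart in either line. Both lines carry the inducible system and both received doxycycline. The labels do not say how many clones each line came from. The library columns name a group and one of 3 tags, C, NE or TR, whose meaning is not given in the labels, and no column could be tied to a replicate letter. Whether the libraries came from separate cultures is not stated for each of them, so p-values cover only the spread between libraries, part of which may be technical. The study asked how miR-139-5p, which targets HNRNPF, alters the balance of transcripts in these cells.

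Most hnRNP proteins bind exonic or intronic silencers and often repress nearby splice sites, whereas SR proteins bind exonic enhancers through their RNA recognition motifs and recruit the spliceosome through their arginine-serine domains. The outcome at an exon depends on the balance between such factors, and many of these genes also tune their own level by splicing in a poison exon that sends the transcript to decay. A miRNA such as miR-139-5p pairs through its seed, bases 2 to 8, with matching stretches in 3′ UTRs and lowers the amount or translation of those transcripts.

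The mature miRNA and the sites it could pair with in these genes are shown first, because the contrast between the lines rests on the seed. Capitals mark the seed (bases 2 to 8) in the miRNA and the 7 bases complementary to it, ACTGTAG, in the 3′ UTR windows of the members with the most negative doxycycline change among those with a site (TIA1, MBNL2, CELF1 and HNRNPR), of SRSF4, and of HNRNPF for comparison. The miRNA lies at chr11:72615102-72615124 on the minus strand (GRCh38.p14, sequence from RefSeq), and the windows come from GENCODE 29 transcripts (GRCh38).
hsa-miR-139-5p: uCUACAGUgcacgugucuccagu
TIA1: atagctgtgaaACTGTAGaatatctttgt
MBNL2: gttcaacaaatACTGTAGttaagagacta
CELF1: gttaagatgtgACTGTAGccacagccagg
HNRNPR: tgtaaattaacACTGTAGcagcattcaga
SRSF4: ataggaaataaACTGTAGagttccatatt
HNRNPF: acaatactaatACTGTAGgaattggtgag
In TIA1 and SRSF4 the 7 bases are followed by an A, which makes the 8-base match ACTGTAGA. All 6 matches lie in the last exon, in the 3′ UTR. The TIA1 match is at chr2:70211535-70211541, minus strand, exon 13 of 13. The MBNL2 match is at chr13:97393849-97393855, plus strand, exon 9 of 9. The CELF1 match is at chr11:47470742-47470748, minus strand, exon 13 of 13. The HNRNPR match is at chr1:23308041-23308047, minus strand, exon 10 of 10. The SRSF4 match is at chr1:29147893-29147899, minus strand, exon 6 of 6, and the HNRNPF match is at chr10:43386151-43386157, minus strand, exon 4 of 4.

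Searched on the transcript strand of the longest 3′ UTR, the 7 bases were present in 10 of the 43 members that were expressed highly enough to test (23.3%), against 894 of 7915 tested genes with a 3′ UTR (11.3%). The 10 were CELF1, HNRNPC, HNRNPR, HNRNPU, MBNL2, RBFOX2, RBM17, SRSF11, SRSF4 and TIA1. HNRNPU held 2 matches, 1 of them the 8-base form. MBNL3, which was below the expression filter, also held 2. The members with a match have long 3′ UTRs, with a median of 3029 bases, against 1534 bases in the members without one. A match is a stretch of letters and was not shown to be bound.

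Levels are given as FPKM, fragments per transcript length and per mapped fragments of a library, so they can be compared between genes. Of the 45 regulators, 27 averaged at least 100 FPKM over the 12 libraries and 16 averaged 10 to 100 FPKM, while CELF2 and MBNL3 averaged under 1 FPKM and were not tested. The median over the 43 tested members was 136.8 FPKM, against 14.4 FPKM over the 9778 tested genes, and the 45 together took 1.39% to 1.71% of the summed FPKM of a library. In the order of levels, 41 of the 44 neighbouring pairs had overlapping ranges, so most neighbours cannot be ranked. Differences between groups are log2 differences of FPKM + 1, a scale that understates the change of low genes, and a member is said to be called where its p, adjusted over all tested genes, is under 0.05.

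Among the hnRNP proteins, HNRNPA1, a repressor that binds exonic silencers, was the most abundant member. HNRNPA1 had 1537, 1892 and 1974 FPKM in the NE, C and TR libraries of the treated miR-139 line, against 1784, 1944 and 1975 FPKM in the untreated miR-139 line. HNRNPA1 in the scrambled line had 1575, 2215 and 1958 FPKM with doxycycline, against 1497, 2162 and 1752 FPKM without it. The NE library was the lowest of its group each time. HNRNPC, which coats nascent transcripts and masks cryptic exons, ranged from 542 to 907 FPKM, and HNRNPL, a reader of CA-rich elements, from 245 to 460 FPKM. PCBP2, which binds C-rich RNA, had 585, 612 and 578 FPKM in the treated miR-139 line, against 513, 603 and 568 FPKM in the untreated one. PCBP2 had 638, 619 and 552 FPKM in the treated scrambled line, against 589, 645 and 521 FPKM in the untreated one. PCBP2 was higher in C than in TR in all 4 groups, and those ranges did not overlap, whereas treated and untreated libraries overlapped in both lines. NONO, a paraspeckle protein that pairs with SFPQ, had 455, 446 and 436 FPKM in the treated miR-139 line, against 438, 433 and 442 FPKM in the untreated one. NONO had 459, 426 and 436 FPKM in the treated scrambled line, against 455, 423 and 428 FPKM in the untreated one. It was the steadiest member, with a coefficient of variation of 2.71% over the 12 libraries, against a median of 13.2% over the members. RBM39 had the highest mean of the RBM proteins and SRRM2 of the SR-related coactivators. Among the SR proteins SRSF5 and SRSF9 averaged 296 and 295 FPKM and cannot be ranked, and the values of SRSF5 stand with the tags below.

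Of the regulators known for tissue-restricted use, RBFOX2, which reads GCATG elements and promotes mesenchymal exon choices, was the most abundant. RBFOX2 had 73.4, 73.6 and 69.0 FPKM in the treated miR-139 line, against 81.9, 76.6 and 69.3 FPKM in the untreated one. The scrambled line had 73.7, 70.4 and 80.3 FPKM of RBFOX2 with doxycycline, against 73.2, 70.6 and 83.5 FPKM without it. ESRP2, an epithelial splicing regulator, averaged 16.2 FPKM. The neural and muscle regulators CELF2 and MBNL3 were close to the bottom of the scale. CELF2 had 0.685, 0.930 and 0.528 FPKM in the treated miR-139 line, against 0.888, 1.19 and 0.454 FPKM in the untreated one. CELF2 in the scrambled line had 0.706, 1.21 and 0.471 FPKM with doxycycline, against 0.391, 1.14 and 0.544 FPKM without it. Its C libraries were the highest of each group, which carries no test because the gene fell below the filter. MBNL3, a muscleblind protein, had 1.06, 1.04 and 0.441 FPKM in the treated miR-139 line, against 0.697, 0.928 and 0.397 FPKM in the untreated one. MBNL3 in the scrambled line had 0.574, 0.639 and 0.368 FPKM with doxycycline, against 0.475, 0.888 and 0.390 FPKM without it. Its TR libraries were the lowest of each group.

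Some levels are uncertain because of reads shared with other genes. The table lists 50 HNRNPA1-like copies with a summed mean of 46.8 FPKM, 2.52% of the HNRNPA1 level, led by HNRNPA1L2 at 22.3 FPKM and HNRNPA1P48 at 13.3 FPKM. The readthrough gene HNRNPUL2-BSCL2 averaged 23.5 FPKM, 27.7% of HNRNPUL2, and RBM14-RBM4 averaged 3.70 FPKM, 3.72% of RBM4. The antisense genes HNRNPU-AS1 and PCBP1-AS1 averaged 13.9 and 11.1 FPKM. In GENCODE 29, 17 members overlap exons of a gene on the opposite strand. The library kit keeps the strand, but whether the counting used it is not given in the sources used here.

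The tag separated the libraries more than the group did. Of the members' sum of squares, 80.5% went with the tag and 7.54% with the group, against 62.5% and 13.1% over all tested genes. The 4 NE libraries stood apart, with 6.08% to 9.18% of their FPKM in mitochondrial genes, against 11.4% to 12.8% in C and 12.3% to 13.1% in TR. These shares too are of the sum over the genes read here. Depth relative to the treated miR-139 C library, read from the step that 1 fragment makes in low values, was 0.815 to 0.944 in NE, 0.863 to 1.00 in C and 0.622 to 1.29 in TR. The thyroid factor PAX8 averaged 107 FPKM, KRT8 618 FPKM, KRT18 663 FPKM and VIM 1711 FPKM, whereas NKX2-1 was listed at 0 in 12 of 12 libraries and TSHR in 11. The leukocyte marker PTPRC was also listed at 0 in 12 of 12 libraries, while CD68, the other leukocyte marker, averaged 8.68 FPKM. The epithelial marker CDH1 averaged 0.0362 FPKM. Of the fibroblast markers, COL1A1 averaged 62.0 FPKM and LUM 0.135 FPKM. The libraries are bulk RNA, in which fewer cells of a type and less RNA per cell cannot be told apart.

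**Figure D1:**
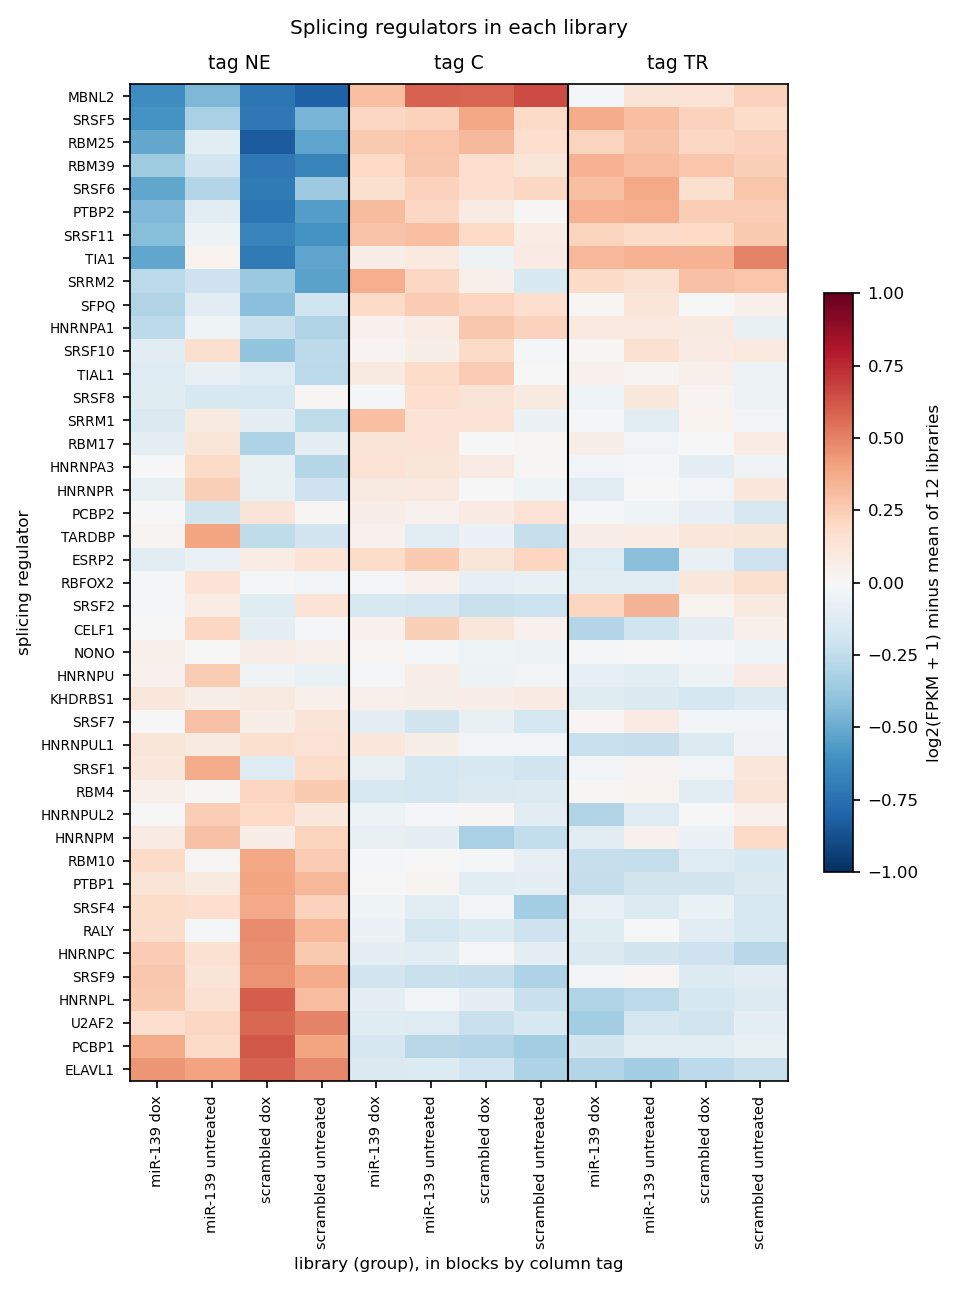
Each row is 1 of the 43 tested splicing regulators and each column 1 of the 12 libraries, in blocks NE, C and TR, with the treated miR-139, untreated miR-139, treated scrambled and untreated scrambled library in each block. Colour is log2(FPKM + 1) minus the member's mean over the 12 libraries, on a scale of −1 to 1, with rows ordered from MBNL2 (lowest in NE) to ELAVL1 (highest in NE), and the NE block differs from the other 8 columns at both ends of the list.

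No splicing regulator passed the test for a change with doxycycline in the miR-139 line. Of the 43 members tested, 0 had an adjusted p under 0.05, beside a background of 0% over the 9778 tested genes (limma, two-sided). With the tag as a replicate block, which removes the spread between NE, C and TR, again 0 of 43 were called, beside 0.0205% of all genes. Without the block 0 members and with it 0 members had an unadjusted p under 0.05, against 0.736% and 4.48% of all genes. All 43 of the 95% confidence intervals of the blocked fit lay within −0.5 to 0.5 on the log2 scale, from −0.468 (TIA1) to 0.295 (RALY), so no member's interval reached a change of that size. Without the block, 27 of 43 intervals lay within that range. HNRNPF, the known target and not a member, had 113, 96.7 and 85.9 FPKM in the NE, C and TR libraries of the treated miR-139 line, against 238, 193 and 184 FPKM in the untreated one. Its log2 difference was −1.05 (SE 0.0805, adjusted p = 3.61e-05 with the block, 0.337 without it), beyond the blocked interval of every tested member.

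Small negative differences were more frequent than positive ones among the members, at 28 of 43, with a median of −0.06, against 48.8% of all tested genes negative and a median of 0.00. The median within tag was lowest in NE, at −0.17, against −0.01 in C and −0.02 in TR, and without the NE libraries 24 of 43 members were negative with a median of −0.01. Without the untreated NE library of the miR-139 line alone, 22 of 43 were negative with a median of −0.01. That fit had no block, so the tags were unequal between the groups. In all 3 tags 11 members were lower in the treated libraries (background 14.5%) and 4 were higher (background 16.3%). By role, 7 of 10 hnRNP proteins, 8 of 10 SR proteins, 3 of 5 RBM proteins, 3 of 5 of the PTB, PCBP and TDP-43 group, 3 of 4 cell-type regulators and 3 of 6 of the KH, ELAV, TIA and DBHS group had a negative difference, none of them called. Of the SR-related coactivators and U2AF, 1 of 3 was negative.

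**Figure D2:**
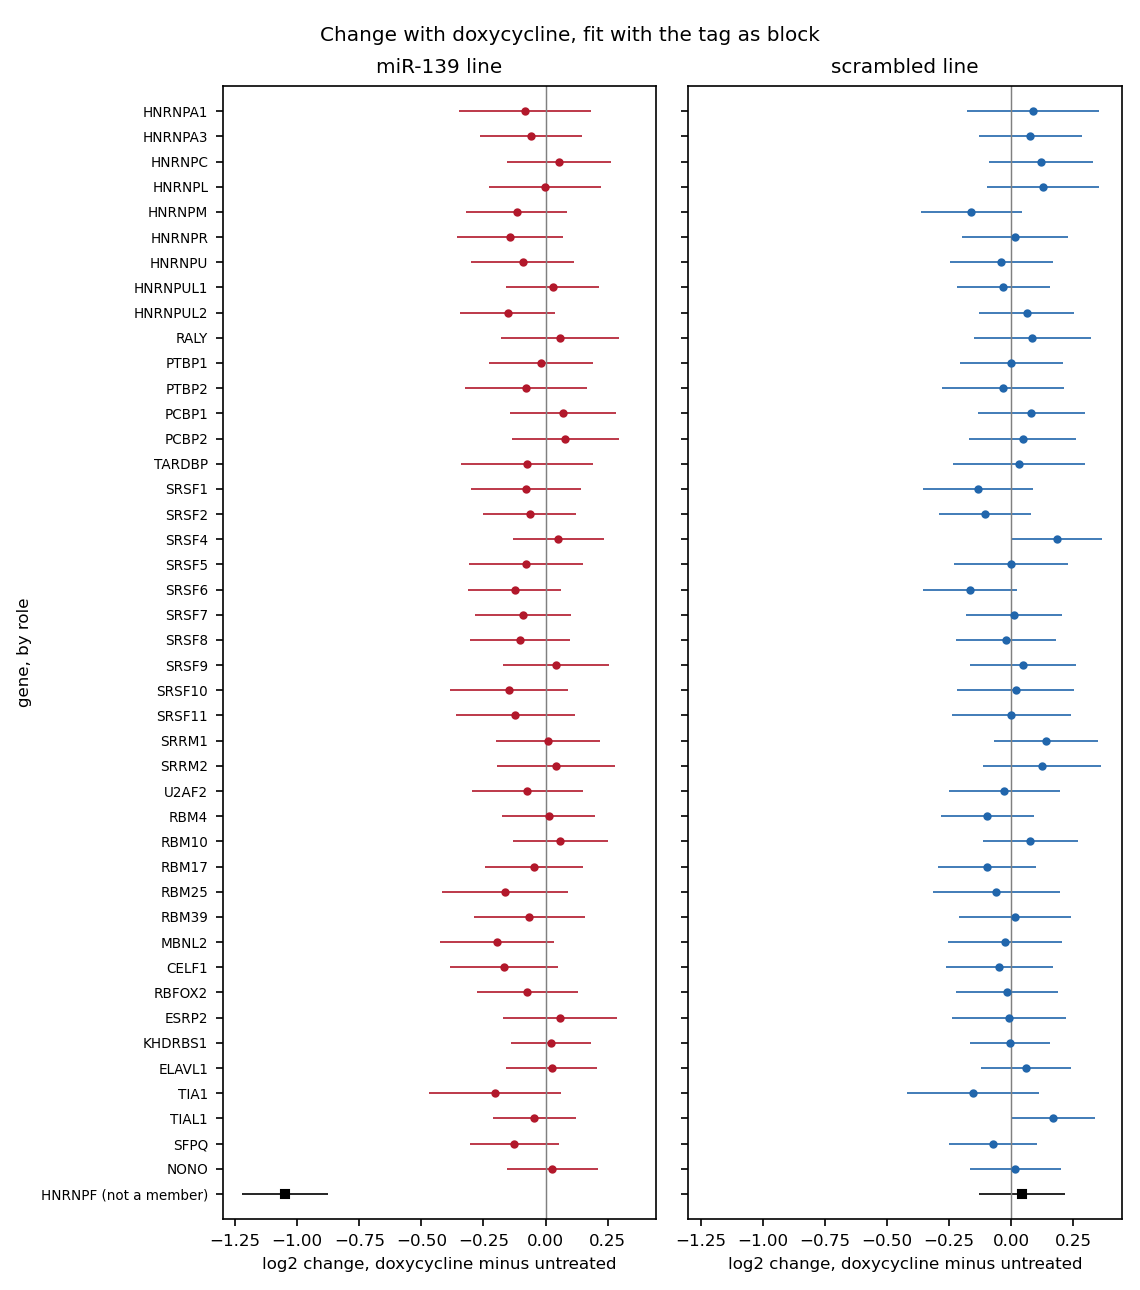
Log2 change with doxycycline for each tested splicing regulator, grouped by role, in the left (miR-139 line) and right (scrambled line) panel, from the blocked fit, where bars are 95% confidence intervals over 3 treated and 3 untreated libraries. HNRNPF (black square) sits at −1.05 in the miR-139 line, and every member lies between −0.20 and 0.08 there and between −0.17 and 0.18 in the scrambled line.

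Among the hnRNP proteins, HNRNPR, a close relative of SYNCRIP, and HNRNPUL2, a relative of the chromatin-bound HNRNPU, had the smallest p-values. HNRNPR had 119, 134 and 117 FPKM in the NE, C and TR libraries of the treated miR-139 line, against 149, 135 and 126 FPKM in the untreated one. The groups overlapped, and the difference of −0.14 (SE 0.125, adjusted p = 1.00) did not pass. HNRNPUL2 had 84.2, 81.2 and 68.2 FPKM in the treated libraries, against 99.9, 83.3 and 77.2 FPKM in the untreated ones. Each treated library was below its untreated partner of the same tag, yet the groups overlapped and the difference of −0.15 (SE 0.139) had an adjusted p of 1.00, and 1.00 with the block.

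Of the SR proteins, SRSF10, a repressor when dephosphorylated after heat shock or in mitosis, had the smallest p. SRSF10 had 68.4, 75.8 and 74.8 FPKM in the NE, C and TR libraries of the treated miR-139 line, against 83.1, 77.3 and 82.5 FPKM in the untreated one. It was the only member whose treated and untreated ranges did not overlap (background 4.39% of genes), and the difference of −0.15 (SE 0.158) had an adjusted p of 1.00. In the scrambled line SRSF10 had 56.2, 84.8 and 78.5 FPKM with doxycycline, against 61.9, 73.2 and 79.6 FPKM without it. There the NE library was the lowest of both groups.

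Of the cell-type regulators, CELF1, which binds GU-rich elements, and MBNL2, a muscleblind protein that sets developmental exon choices, were each lower than their untreated partners in all 3 tags without passing the test. CELF1 had 54.5, 56.0 and 44.3 FPKM in the NE, C and TR libraries of the treated miR-139 line, against 63.1, 64.4 and 47.4 FPKM in the untreated one. The difference was −0.17 (SE 0.147, adjusted p = 1.00). In the scrambled line CELF1 had 51.0, 58.8 and 51.1 FPKM with doxycycline, against 53.6, 56.0 and 56.5 FPKM without it. MBNL2 had 17.4, 33.9 and 27.1 FPKM in the treated miR-139 line, against 19.7, 41.5 and 29.9 FPKM in the untreated one. Its difference of −0.20 had the smallest p of any member with the block (0.0873 before and 1.00 after adjustment, 95% interval −0.427 to 0.0328). In the fit without the block, the difference was 0.05 without the untreated C library and 0.06 without the treated NE library. Leaving out 1 library in that fit leaves the tags unequal between the groups, so these values do not bear on the blocked estimate. TIA1, which promotes weak 5′ splice sites, had the lowest point estimate, −0.20 (SE 0.124 with the block). Its difference within tag was −0.56, −0.03 and −0.02 in NE, C and TR, so most of it came from the NE libraries.

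The members with a miR-139-5p seed match were set beside the rest as a description. With doxycycline in the miR-139 line, 8 of the 10 members with a match were negative with a median of −0.11 and a range of −0.20 to 0.05, against 20 of 33 members without a match and a median of −0.06. Over all tested genes with a 3′ UTR, 68.7% of those with a match were negative with a median of −0.05, against 46.7% and 0.01 without one. The 3 members with the 8-base form did not share a direction, with TIA1 at −0.20, HNRNPU at −0.09 and SRSF4 at 0.05. In the scrambled line, where the miRNA is not induced, 6 of the 10 were negative with a median of −0.02. Over all genes in that line, 47.4% of those with a match were negative, against 40.7% of those without one. Before doxycycline, 1 of the 10 was lower in the miR-139 libraries than in the scrambled ones, with a median of 0.07, in untreated miR-139 libraries that the doxycycline comparison shares. Over all genes, 37.5% of those with a match were lower there, against 52.8% of those without one. Between the treated lines, 5 of the 10 members with a match and 16 of the 33 without one were lower in the miR-139 line. Over all genes that share was 54.1% with a match and 54.1% without one.

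In the scrambled line doxycycline left no called change either. Of 43 members, 0 were called without the block and 0 with it, beside 0% and 0% of all tested genes (limma). With the block 1 member, TIAL1, had an unadjusted p under 0.05, against 4% of all genes, and without it 0 had, against 0.481%. Of the 43, 20 were negative with a median of 0.00, against 42.2% of all genes and a median of 0.02. That split depended on scaling, with 31 negative after quantile normalisation and 28 after upper-quartile scaling. The ranges of treated and untreated libraries were apart for 0 members (background 2.69% of genes). In all 3 tags 6 members were lower with doxycycline (background 12.6%) and 9 were higher (background 20.2%).

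TIAL1, the close relative of TIA1, had 105, 137 and 119 FPKM in the NE, C and TR libraries of the treated scrambled line, against 95.01, 115 and 111 FPKM in the untreated one. It was higher in all 3 tags, with a log2 difference of 0.17 (SE 0.140 without the block). In the limma fit with the block its p was 0.0490 before and 0.998 after adjustment. In the miR-139 line TIAL1 had 105, 123 and 118 FPKM with doxycycline, against 109, 131 and 117 FPKM without it. SRSF4, an SR protein with a long arginine-serine domain, had 102, 76.5 and 74.6 FPKM in the treated scrambled line, against 91.8, 61.5 and 69.8 FPKM in the untreated one. Its difference of 0.18 (SE 0.175, adjusted p = 1.00) was also positive in all 3 tags. SRSF4 carries the 8-base seed match, and in the miR-139 line it had 88.9, 75.9 and 73.9 FPKM with doxycycline, against 87.6, 71.9 and 71.0 FPKM without it.

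HNRNPM, which favours mesenchymal exon choices in CD44, had 202, 153 and 185 FPKM in the NE, C and TR libraries of the treated scrambled line, against 225, 163 and 220.5 FPKM in the untreated one. It was lower in all 3 tags, with a log2 difference of −0.16 (SE 0.166, adjusted p = 1.00). In the miR-139 line HNRNPM had 204, 183 and 178 FPKM with doxycycline, against 236, 181 and 199 FPKM without it. SRRM1, a coactivator that bridges SR proteins and the spliceosome, had 50.6, 59.7 and 55.3 FPKM in the treated scrambled line, against 45.3, 51.9 and 52.9 FPKM in the untreated one. Its difference of 0.14 (SE 0.143, adjusted p = 1.00) did not pass. In the miR-139 line SRRM1 had 48.9, 66.9 and 53.6 FPKM with doxycycline, against 57.6, 59.5 and 50.03 FPKM without it.

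The difference between the 2 doxycycline responses was tested as an interaction, the log2 change of the miR-139 line minus that of the scrambled line. It called 0 of 43 members without the block and 0 with it, beside 0% and 0.0102% of all genes (limma). Without the block 0 members had an unadjusted p under 0.05, against 0.419% of all genes, and with it 0 had, against 3.44%. For HNRNPUL2 it was −0.21 (SE 0.127 with the block, adjusted p = 1.00), and for TIAL1 −0.21 (SE 0.11, adjusted p = 1.00). HNRNPR had −0.16 (SE 0.177) and SRSF10 −0.17 (SE 0.224), neither called. In all 4 of these members the miR-139 point estimate was negative and the scrambled one positive. Of the 43, 32 were negative with a median of −0.05, against 55.6% of all genes and a median of −0.02. After quantile normalisation 24 were negative and after upper-quartile scaling 26. For comparison, HNRNPF had an interaction of −1.09 (adjusted p = 0.00166 with the block).

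After doxycycline the 2 lines were compared directly, in libraries that both doxycycline comparisons above already use. No member was called, 0 of 43 without the block and 0 with it, beside 0% and 0.112% of all genes (limma), the blocked 0.0716% higher and 0.0409% lower. Without the block 0 members had an unadjusted p under 0.05, against 1.07% of all genes, and with it 0 had, against 7.18%. HNRNPUL2 had 84.2, 81.2 and 68.2 FPKM in the NE, C and TR libraries of the treated miR-139 line, against 97.1, 85.2 and 84.2 FPKM in the treated scrambled line. Those ranges did not overlap, which held for this 1 member and for 4.19% of all genes. Its difference was −0.19 (SE 0.0895 with the block, adjusted p = 0.696), and HNRNPUL2 is the member whose readthrough gene takes the largest share. PTBP2, the neural relative of PTBP1, had 7.27, 13.0 and 13.3 FPKM in the treated miR-139 line, against 5.81, 10.9 and 12.3 FPKM in the treated scrambled line. The difference of 0.21 (SE 0.115 with the block, adjusted p = 0.765) was positive in 3 of 3 tags. In the fit without the block it became −0.09 without the NE library of the treated scrambled line, which leaves the tags unequal between the lines.

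RBM17, a 3′ splice site factor that binds U2AF proteins, had 79.7, 92.7 and 88.4 FPKM in the NE, C and TR libraries of the treated miR-139 line, against 68.5, 85.1 and 84.8 FPKM in the treated scrambled line. SRSF2, an exonic-enhancer SR protein, had 125, 113 and 147 FPKM in the treated miR-139 line, against 116, 108 and 129 FPKM in the treated scrambled line. TARDBP, the TDP-43 gene, which represses cryptic exons, had 107, 108 and 111 FPKM in the treated miR-139 line, against 88.1, 101 and 114 FPKM in the treated scrambled line. RBM17 and SRSF2 were higher in the miR-139 line in all 3 tags and TARDBP in 2 of 3, with differences of 0.13, 0.12 and 0.11 that were not called. Without doxycycline RBM17 had 92.6, 93.4 and 83.1 FPKM in the miR-139 line, against 79.3, 85.5 and 89.4 FPKM in the scrambled line, where the tags did not share a direction.

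Without doxycycline, 0 of 43 members were called between the miR-139 line and the scrambled line, and again 0 with the tags blocked, beside 0% and 0% of all genes (limma). With the block 2 members, PTBP2 and RBM39, had an unadjusted p under 0.05, against 4.45% of all genes, and without it 0 had, against 0.593%. HNRNPA3, an hnRNP of the A/B family, had 323, 308 and 279 FPKM in the NE, C and TR libraries of the untreated miR-139 line, against 233, 286 and 276 FPKM in the untreated scrambled line. Its difference was 0.20 (SE 0.131, adjusted p = 1.00), the smallest p of any member without the block. TARDBP had 97.4 and 111 FPKM in the C and TR libraries of the untreated miR-139 line, against 89.5 and 115 FPKM in those of the untreated scrambled line. Its NE library in the miR-139 line, the highest of all 12, lay 0.59 on the log2 scale above the 92.1 FPKM of the scrambled one, and the difference over the 3 tags was 0.22 (SE 0.158, adjusted p = 1.00). PTBP2 had 9.41, 11.9 and 13.4 FPKM in the untreated miR-139 line, against 6.64, 10.3 and 12.3 FPKM in the untreated scrambled line, a difference of 0.25 (adjusted p = 0.928 with the block). RBM39, a U2AF-related coactivator, had 319, 439 and 449.8 FPKM in the untreated miR-139 line, against 229, 396 and 428 FPKM in the untreated scrambled line. RBM39 was higher in all 3 tags, by 0.47, 0.15 and 0.07 in NE, C and TR, with a pooled difference of 0.23. In the fit without the block it became −0.05 without the NE library of the untreated scrambled line, which leaves the tags unequal between the lines.

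HNRNPR and SRSF10, which had small p-values with doxycycline in the miR-139 line, differed between the untreated lines by 0.16 (SE 0.125) and 0.18 (SE 0.158), both higher in the miR-139 line and not called. These comparisons share the untreated miR-139 libraries, so a high value there lowers the doxycycline difference and raises the line difference together. The untreated NE library of the miR-139 line had the highest HNRNPR value of all 12 libraries, 148.5 FPKM, and SRSF10 was 83.1 FPKM there. Of the 43 members, 29 were higher in the untreated miR-139 line with a median of 0.06, against a median of 0.00 over all genes. After quantile normalisation 33 were higher, and after correction for GC content and length 25, with a median of 0.02. Without the untreated NE library of the miR-139 line 22 were higher, with a median of 0.01, in a fit without the block that kept the scrambled NE library. In blocked fits, 30 were higher without all NE libraries, 23 without all C and 29 without all TR libraries. Their medians were 0.04, 0.06 and 0.09. With all libraries, 9 of the 10 SR proteins were higher, or 6 after correction for GC content and length. No member had ranges apart (background 2.91% of genes).

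The clearest differences among the splicing regulators lay between tags. In the NE libraries 29 of 43 members (67.4%) differed from C and TR at an adjusted p under 0.05, 16 higher and 13 lower, beside a background of 52% of all tested genes, 28% higher and 24% lower (limma with group and tag). The ranges of the 4 NE libraries and the 8 others were apart for 19 members (background 24%). SR proteins split both ways. SRSF5, SRSF6, SRSF10 and SRSF11 were lower and SRSF1, SRSF4, SRSF7 and SRSF9 higher, and of 10 hnRNP proteins 6 were higher and HNRNPA1 was lower. That hnRNP split became 1 higher and 3 lower after quantile normalisation and 3 higher and 1 lower after upper-quartile scaling. Over all 43 members, 7 were higher and 19 lower after quantile normalisation, beside 25.9% and 23.4% of all genes. After upper-quartile scaling 10 were higher and 16 lower, beside 20.6% and 31.3% of all genes. The median of all genes was 0.02 as deposited, 0.02 after quantile normalisation and −0.07 after upper-quartile scaling. Called in the same direction under all 3 were 7 higher members (ELAVL1, HNRNPL, PCBP1, RBM10, SRSF4, SRSF9 and U2AF2) and 13 lower ones (HNRNPA1, MBNL2, PTBP2, RBM25, RBM39, SFPQ, SRRM2, SRSF5, SRSF6, SRSF10, SRSF11, TIA1 and TIAL1). The share of all genes called under all 3 is not given here. In 11 members the sign itself turned with scaling, among them the called HNRNPUL1, RBM4, SRSF1 and SRSF7. The mitochondrial share was lower in NE than in C and TR, as given above. FN1, a mesenchymal marker, had 31.4 to 90.6 FPKM in NE, against 126 to 574 FPKM in C and TR. The ranges of VIM, the other mesenchymal marker, overlapped, at 1377 to 1930 FPKM in NE and 1464 to 2099 FPKM in C and TR. The part of the mitochondrial share and of FN1 in the result was not tested.

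**Figure D3:**
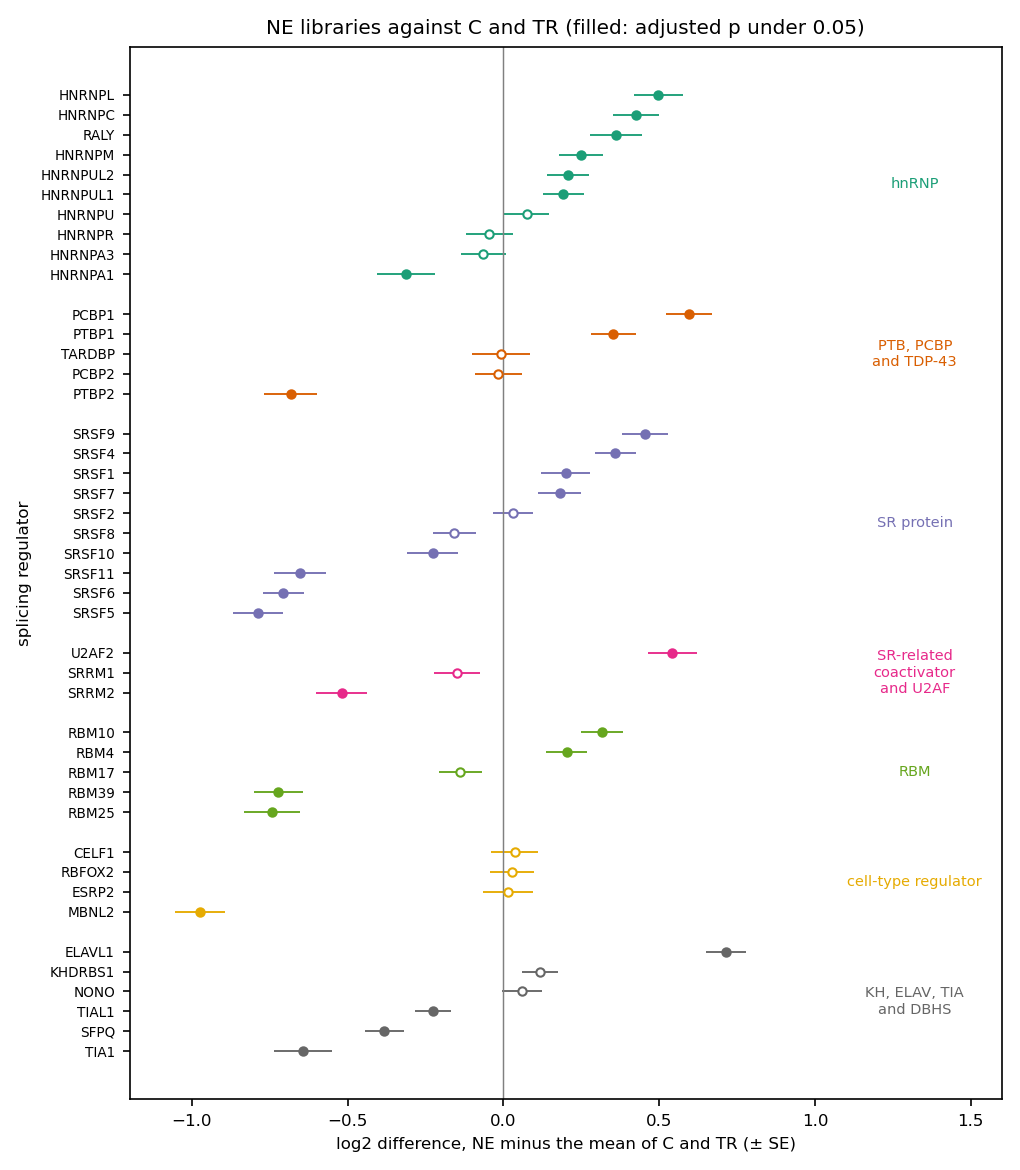
Log2 difference between the NE libraries and the mean of C and TR for each tested splicing regulator, by role, where bars are standard errors from the fit over 4 NE and 8 other libraries and filled points have an adjusted p under 0.05. MBNL2 is lowest at −0.98 and ELAVL1 highest at 0.71, and SR proteins lie on both sides of 0, but SRSF1, SRSF7, HNRNPUL1 and RBM4 change sign under another scaling.

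Values of the 12 members with the largest NE differences are given library by library, each time for the treated miR-139, untreated miR-139, treated scrambled and untreated scrambled library of a tag. Among the SR proteins, SRSF5, a shuttling enhancer-binding protein, had 189, 228, 174 and 207 FPKM in the 4 NE libraries, against 331, 337, 374 and 327 FPKM in C and 369.7, 353, 336 and 324 FPKM in TR. Every NE value was below every other (log2 −0.79, SE 0.0802, adjusted p = 9.10e-06). SRSF6, which shapes exon choice in tau, had 105, 124, 92.1 and 117 FPKM in the 4 NE libraries, against 169, 178, 170.4 and 175 FPKM in C and 187, 197, 169 and 183 FPKM in TR. Its ranges did not overlap either (log2 −0.71, SE 0.0658, adjusted p = 5.55e-06). SRSF11, an arginine-serine protein that binds U2AF and the early spliceosome, had 79.5, 103, 67.4 and 70.7 FPKM in the 4 NE libraries, against 131, 133, 123 and 113 FPKM in C and 125, 123, 123 and 129 FPKM in TR. All 4 NE values were the lowest (log2 −0.65, SE 0.0834, adjusted p = 3.78e-05), and the 2 of the scrambled line were the lowest of these. SRRM2, the large scaffold protein of nuclear speckles and an SR-related coactivator, had 195, 205, 182 and 163 FPKM in the 4 NE libraries, against 304, 273, 244 and 212 FPKM in C and 270.4, 263, 289 and 287 FPKM in TR. Its NE range lay below the rest (log2 −0.52, SE 0.0830, adjusted p = 1.98e-04).

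Of the RBM proteins, RBM39 had 284, 319, 221 and 229 FPKM in the 4 NE libraries, against 418, 439, 409 and 396 FPKM in C and 464, 449.8, 442 and 428 FPKM in TR. RBM39 averaged 263 ± 46.2 FPKM in NE and 431 ± 22.3 FPKM in C and TR (SD, n = 4 and n = 8), without overlap (log2 −0.72, SE 0.0785, adjusted p = 1.29e-05). RBM25, a U1-associated regulator of 5′ splice site choice, had 36.7, 49.0, 29.2 and 36.4 FPKM in the 4 NE libraries, against 63.4, 64.3, 66.2 and 59.4 FPKM in C and 61.9, 64.7, 61.2 and 62.3 FPKM in TR. The NE range lay below the others (log2 −0.74, SE 0.0889, adjusted p = 2.37e-05). RBM10, an exon-skipping factor, ranged from 31.7 to 49.3 FPKM over the 12 libraries and was higher in NE (log2 0.32, SE 0.0671, adjusted p = 0.00148). RBM17 was not called (log2 −0.14, SE 0.0689, adjusted p = 0.105).

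MBNL2 had 17.4, 19.7, 16.2 and 15.1 FPKM in the 4 NE libraries, against 33.9, 41.5, 41.3 and 43.4 FPKM in C and 27.1, 29.9, 30.1 and 32.1 FPKM in TR. It averaged 17.1 ± 1.97 FPKM in NE, 40.0 ± 4.17 FPKM in C and 29.8 ± 2.06 FPKM in TR (SD, n = 4 each), and the 3 tags did not overlap one another. Its NE difference was the largest of any member as deposited (log2 −0.98, SE 0.0803, adjusted p = 2.45e-06) and after upper-quartile or quantile scaling. After correction for GC content and length it was −0.65, and SRSF5, ELAVL1 and HNRNPC were farther from 0. Its coefficient of variation of 35.0% over the 12 libraries was the highest. PTBP2 had 7.27, 9.41, 5.81 and 6.64 FPKM in the 4 NE libraries, against 13.0, 11.9, 10.9 and 10.3 FPKM in C and 13.3, 13.4, 12.3 and 12.3 FPKM in TR. The NE libraries were the lowest (log2 −0.68, SE 0.0861, adjusted p = 3.51e-05), while PTBP1, the broadly expressed paralog, ranged from 171 to 266 FPKM and was higher in NE (log2 0.35, SE 0.0728, adjusted p = 0.00122, not called after quantile normalisation). TIA1 had 34.4, 51.0, 30.1 and 34.1 FPKM in the 4 NE libraries, against 51.9, 53.2, 48.0 and 52.8 FPKM in C and 62.8, 63.6, 63.3 and 70.4 FPKM in TR. It was lower in NE (log2 −0.64, SE 0.0929, adjusted p = 9.30e-05), but its untreated miR-139 NE library lay among the C values.

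Higher in NE was ELAVL1, the HuR protein that binds AU-rich elements, which had 92.4, 89.8, 103 and 94.9 FPKM in the 4 NE libraries, against 61.3, 61.6, 58.9 and 54.6 FPKM in C and 55.1, 53.5, 56.4 and 58.0 FPKM in TR. Every NE value was above every other (log2 0.71, SE 0.0637, adjusted p = 4.44e-06). PCBP1, a poly(C)-binding protein, had 242, 214, 288 and 246 FPKM in the 4 NE libraries, against 166, 154, 152 and 146 FPKM in C and 164, 173, 172 and 177 FPKM in TR. Its NE range lay above the rest (log2 0.60, SE 0.0749, adjusted p = 3.48e-05). U2AF2, the large U2AF subunit that binds the polypyrimidine tract, had 227, 233, 301 and 284 FPKM in the 4 NE libraries, against 185, 185, 173 and 180.0 FPKM in C and 158, 179, 175 and 189 FPKM in TR. U2AF2 averaged 261 ± 36.7 FPKM in NE and 178 ± 9.73 FPKM in C and TR (SD, n = 4 and n = 8; log2 0.54, SE 0.0782, adjusted p = 9.22e-05), and the 2 scrambled NE libraries were the highest. HNRNPC averaged 803 ± 74.3 FPKM in NE and 596 ± 33.3 FPKM in C and TR (log2 0.43, SE 0.0735, adjusted p = 3.51e-04), a call that was lost after quantile normalisation. HNRNPL was higher in NE under all 3 scalings (log2 0.50, SE 0.0790, adjusted p = 1.92e-04 as deposited).

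**Figure D4:**
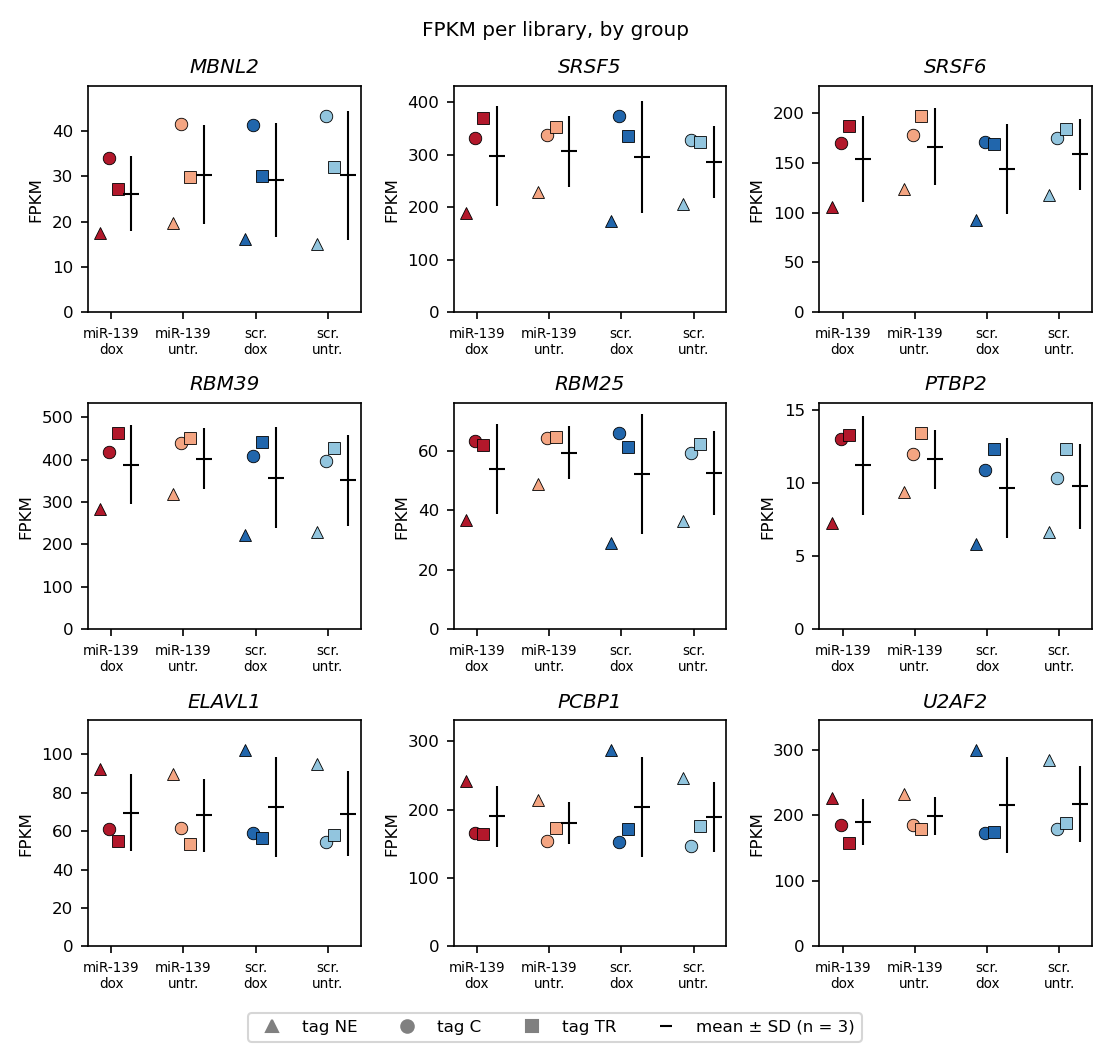
FPKM of 9 splicing regulators in each library by group (treated miR-139, untreated miR-139, treated scrambled, untreated scrambled), with NE libraries as triangles, C as circles and TR as squares, and a bar for each group's mean ± SD (n = 3). Triangles lie below the other libraries of the same group in MBNL2, SRSF5, SRSF6, RBM39, RBM25 and PTBP2 and above them in ELAVL1, PCBP1 and U2AF2, in all 4 groups.

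The NE difference was also fitted within each line. In the miR-139 line 26 of 43 members were called, 14 higher and 12 lower, beside a background of 36% of all tested genes, 19.4% higher and 16.6% lower. The scrambled line gave 28 of 43, 14 higher and 14 lower, beside 58.7% of all genes, 32.2% higher and 26.5% lower. The 2 differences were themselves unequal for 7 members, 3 higher and 4 lower in the miR-139 line, beside 16.5% of all genes, 6.21% higher and 10.3% lower. For MBNL2 the NE difference was −0.79 for miR-139 libraries and −1.16 for scrambled ones (SE 0.0725 each), and for SRSF9, an SR protein often acting as a silencer, 0.30 for miR-139 libraries and 0.61 for scrambled ones (SE 0.0633 each). SRSF10 was called in the scrambled line, at −0.41, and not in the miR-139 line, at −0.04 (SE 0.0789 each), with an adjusted p of 0.0429 for the difference between lines. These calls changed with scaling and with single libraries. After either other scaling 9 members were called, all higher and 0 lower, and the share of all genes called after those scalings is not given here. Without any one of 6 libraries 0 were called, namely the untreated miR-139 NE, C or TR, the untreated scrambled TR, or the treated scrambled NE or C library.

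The machinery and the kinases that these regulators work with were set beside them. Of 35 core spliceosome genes tested, 23 were higher and 4 lower in NE, beside 28% and 24% of all genes. Their median was 0.30, against 0.03 over the members and 0.02 over all genes. After quantile normalisation 15 were higher and 4 lower with a median of 0.10, beside 25.9% and 23.4% of all genes. After upper-quartile scaling 18 were higher and 4 lower with a median of 0.20, beside 20.6% and 31.3%. After correction for GC content and length 20 were higher and 4 lower with a median of 0.16, beside 29.7% and 28.9% of the 7939 genes. SNRPG, a ring protein of the snRNPs, was higher (log2 0.79, SE 0.0835, adjusted p = 1.11e-05), while SF3B1, which holds the branch point (log2 −0.80, SE 0.0744, adjusted p = 5.55e-06), and LUC7L3, a U1-associated factor (log2 −0.86, SE 0.0778, adjusted p = 4.98e-06), were lower. Of 4 SR protein kinases tested, which phosphorylate the arginine-serine domains, 1 was higher and 2 lower, CLK1 most of all (log2 −0.85, SE 0.0648, adjusted p = 1.40e-06). SNRPG, SF3B1, LUC7L3 and CLK1 kept their direction and call under both other scalings. Of the kinases, 0 were called higher and 2 lower after quantile normalisation, and likewise after upper-quartile scaling.

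The NE difference moved with base composition. Across the 43 members Spearman's rho between the NE difference and the GC content of the longest coding transcript was 0.562, and 0.371 across 7939 tested genes with a transcript match, and with transcript length it was −0.355 and −0.341. Genes of one library share its preparation and are not independent, so these values are descriptive. The 16 members called higher had a median GC content of 53.1%, the 13 called lower 39.3% and the 14 not called 45.7%. SRSF5 (49.0% GC), SRRM2 (56.2%) and SFPQ (48.8%) were lower in NE despite a GC content near or above the middle of the members, and HNRNPC (39.2%) and ELAVL1 (46.1%) were higher. After each library was corrected for GC content and length, 19 members were higher and 12 lower, beside 29.7% and 28.9% of the 7939 genes. With all scalings and the correction, 7 higher and 11 lower members kept their call and direction, and SRSF10 and TIAL1 did not. The share of all genes that did so is not given here. In 11 of the 18 members that kept their call, the correction made the difference smaller by more than 1.5 times. Among them were PTBP2 (−0.23 after it, against −0.68 as deposited), TIA1 (−0.32 against −0.64), SRSF9 (0.16 against 0.45) and SRSF4 (0.17 against 0.36). SRSF5, SRRM2, SFPQ and ELAVL1 were farther from 0 after it, at −0.90, −0.57, −0.44 and 0.78. The part of base composition in the NE difference was not tested beyond that correction.

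**Figure D5:**
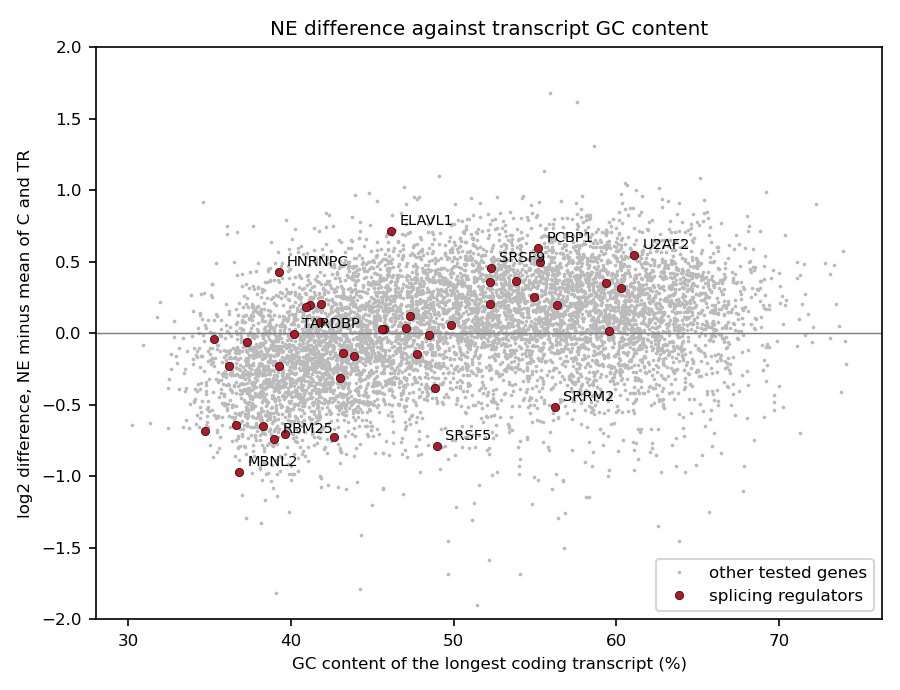
Log2 difference between NE and the mean of C and TR against the GC content (%) of the longest coding transcript, with splicing regulators in red and other tested genes in grey, 3 of which lie beyond the axis range. Members at low GC are mostly lower in NE and members at high GC mostly higher, with SRRM2 and HNRNPC among those that stand off that trend.

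C and TR differed less. Of 43 members 5 were called (11.6%), 3 higher and 2 lower in C, beside a background of 16.6% of all tested genes, 8.16% higher and 8.49% lower, and the ranges of C and TR were apart for 17 (background 27.9%). SRSF2 had 113, 112, 108 and 109 FPKM in the 4 C libraries, against 147, 160.3, 129 and 135 FPKM in TR, and was lower in C (−0.36, SE 0.0755, adjusted p = 0.00598). MBNL2 was higher in C (0.41, SE 0.0927, adjusted p = 0.00943). ESRP2 had 18.4, 19.5, 17.5 and 18.7 FPKM in C, against 14.6, 11.8, 15.1 and 13.7 FPKM in TR and 14.8, 15.2, 16.9 and 17.7 FPKM in NE. It was higher in C (0.40, SE 0.0926, adjusted p = 0.0101), and the NE values overlapped both. KHDRBS1, the Sam68 protein that links signalling to splicing, had 141, 142, 143 and 144 FPKM in C, against 126, 124, 121 and 124 FPKM in TR and 147, 142, 145 and 141 FPKM in NE. C was higher than TR without overlap (0.21, SE 0.0655, adjusted p = 0.0442). TIA1 was lower in C (−0.33, SE 0.107, adjusted p = 0.0493). The KHDRBS1 and TIA1 calls were near the threshold. KHDRBS1 kept its call without the untreated miR-139 NE or the treated scrambled NE library and lost it without any of the other 10 (adjusted p from 0.0606 to 0.134). TIA1 kept its call without the untreated miR-139 NE, untreated miR-139 TR, untreated scrambled NE or treated scrambled NE library and lost it without any of the other 8 (adjusted p from 0.0647 to 0.174). MBNL2 had an adjusted p of 0.0509 without the untreated scrambled C library, and ESRP2 of 0.0523 without the untreated miR-139 C library. TIA1 also lost its call under upper-quartile scaling (adjusted p = 0.0641), a pseudocount of 0.1 (0.0532), no filter (0.159), no variance trend (0.0782) and a fit with the tag alone (0.0590), and KHDRBS1 without the variance trend (0.0709). After correction for GC content and length 12 of 43 members were called, in place of 5. The share of all genes called after that correction is not given here.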

How the data were processed

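PolyA RNA-seq of 12 CAL62 libraries was used, 3 in each of 4 groups. The authors deposited their values as FPKM in 1 table, read here for 37471 genes, with 0 sample columns unused. Chromosomes 3 to 9 were not analysed here. Total RNA was extracted with Trizol and libraries were made with a strand-keeping kit and sequenced on a HiSeq2500, per the labels' protocols. The builds GRCh37 and hg19 are those of the submitters' processing notes, which also list STAR 2.5, TopHat, TopHat2 2.0.10, Cufflinks, HTSeq, Bowtie 1.0.0, FastQC 0.11.0 and SAMtools 1.3.1 and 0.1.19. How each tool served, and with which gene annotation, is not given in the sources used here. Since FPKM is a share of a library, genes that take more of one library lower the values of all others. The table holds no read counts, so absolute depth is unknown, and no counting interval or floor is given. No 2 libraries were identical (0 of 66 pairs).

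Genes with a mean of at least 1 FPKM over the 12 libraries were tested (9778 genes, 43 of the 45 members) on log2(FPKM + 1) with limma 3.58.1 in R 4.3.3, with variance trend and Benjamini-Hochberg adjustment over all tested genes (threshold 0.05, two-sided). Tables and figures were made with Python 3.11.15, pandas 2.3.3 and numpy 2.4.6. Group comparisons were fitted over all 4 groups without a block, and again with the column tag as a replicate block. NE against C and TR and C against TR come from the fit with group and tag. The tags pair the libraries in the data: all 18 same-tag pairs of libraries from different groups deviated together, with r of 0.326 to 0.858, against −0.659 to 0.144 for the 36 pairs of different tags. Deviations were taken from each group's mean, so positive values within a tag by themselves push those between tags below 0. The labels do not say what a tag is. The fitting code was tested on simulated data.

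The members and lists were chosen with earlier results of these data known. The rule for values given library by library took, per comparison, the 4 members with the smallest p and the 2 with the smallest blocked p, the called members (at most 12, by size of difference), the most abundant member of each role and those under the filter. Transcript GC content, length and 3′ UTRs came from GENCODE 29, the longest coding transcript and the longest 3′ UTR of a gene, matched by symbol for 7615 genes and by older symbol for 324 (81.2% of those tested, 45 of 45 members). The GRCh38 coordinates are not those of the files' build. Alternatives were a pseudocount of 0.1, a filter of 5 FPKM and none, quantile normalisation, upper-quartile scaling, no variance trend, and leaving out each library. Correction for GC content and length, and the block combined with scalings, were chosen after seeing the data.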

Additional observations from a re-analysis of the deposited data

Results flagged for a closer look

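The NE difference of 7 members was not the same in the 2 lines by a test of the difference itself, the NE difference of the miR-139 line minus that of the scrambled line (limma, adjusted p under 0.05), which is 16.3% of the 43 tested and close to the background of 16.5% of all tested genes. These were chosen after their values were seen. The difference between lines was 0.375 for MBNL2, which was lower in the NE libraries of both lines. It was 0.337 for RBM39, at −0.56 for miR-139 and −0.89 for scrambled libraries, and 0.373 for SRSF10. Among members that were higher in NE it was −0.386 for RALY, −0.321 for U2AF2, −0.286 for PTBP1 and −0.301 for SRSF9. All 7 lay nearer to 0 in the miR-139 line. Over all tested genes the NE difference was also smaller there, with a median absolute value of 0.204, against 0.327 in the scrambled line. After quantile normalisation or upper-quartile scaling 9 members were called, each with the miR-139 line on the higher side. The share of all genes called after those scalings is not given here, so these 9 stand without a background. Without any one of 6 libraries 0 were called. Each line has 2 NE libraries.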

How the results depend on the processing

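With the column tag as a replicate block, 0 members were called in each of the 5 group comparisons, as without it, and 0 under every other setting run, leaving out each library included. The 29 members called in NE against C and TR were 23 to 29 without single libraries, 7 higher and 19 lower after quantile normalisation, and 10 higher and 16 lower after upper-quartile scaling. The 5 called between C and TR were 3 without the variance trend, 12 after correction for GC content and length, and 2 to 6 without single libraries. They were 2 without the untreated miR-139 C or the untreated scrambled C library. They were 3 without the treated miR-139 NE, C or TR or the treated scrambled C or TR library. The 7 members whose NE difference differed between lines, 3 higher and 4 lower, were 9 higher and 0 lower after either other scaling, 2 after correction for GC content and length, and 0 to 9 without single libraries. They were 0 without the untreated miR-139 NE, C or TR, the untreated scrambled TR or the treated scrambled NE or C library, 1 without the untreated scrambled NE or treated scrambled TR library, and 2 without the treated miR-139 C library; the cause was not tested. For the members called between C and TR or between lines, no share of all genes under these alternatives is given here. The sign turned in 4 of the values for single members. All 4 came from fits without the block, in which leaving out 1 library leaves the tags unequal between the groups. Within tag the direction held, with MBNL2 lower in 3 of 3 tags and PTBP2 and RBM39 higher in 3 of 3. MBNL2 with doxycycline in the miR-139 line ran from −0.466 to 0.0593 without single libraries, positive without the untreated C (0.0531) or the treated NE (0.0593) library. PTBP2 between the treated lines ran from −0.0863, without the treated scrambled NE library, to 0.466. RBM39 between the untreated lines ran from −0.0511, without the untreated scrambled NE library, to 0.400. Over 41 results for single members under 29 settings, 999 values kept direction and call and 26 lost the call, all between C and TR. Changes smaller than the blocked intervals could not be detected with 3 libraries a group.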
